A study of Mus musculus with 30 samples.

Results

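Intraflagellar transport and ciliary motor genes were followed in nuclear RNA of mouse embryonic stem cells from which the chromatin remodeller SRCAP was degraded. The group holds 33 named genes of the 55401 genes in each count table. It was chosen by name and known role, with earlier results of these data known. There are 12 genes of the IFT-B core, 6 of the peripheral IFT-B complex, 6 of IFT-A, 5 of the dynein-2 motor and 4 of the kinesin motors. All 33 had a row in each of the 4 tables, which together hold 30 libraries in 15 groups of 2. Contrasts were made within a table only.

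SYAT cells, derived from the CGR8 line as 1 homozygous clone, carry SRCAP fused to the fluorescent protein YPet and an auxin-inducible degron, together with the plant F-box protein OsTir1. Indole-3-acetic acid (IAA, 500 µM) then sends SRCAP protein for degradation. SYAT controls were kept in auxinole, an antagonist of OsTir1 (200 nM in the labels, with a larger unit in the study's methods), and IAA was given for 2, 4, 6 or 8 h. Parental CGR8 cells, which lack the degron, were compared with and without 4 h of IAA, and auxinole is not recorded for their controls. SYAT cells sorted as early G1 (EG1) or late G1 (LG1), by a mitotic degradation reporter and DNA content, had auxinole or 1 h of IAA. In the wtSRCAP and cdSRCAP lines, each 1 clone of transduced SYAT cells sorted for high mCherry, doxycycline (1 µg/mL, 24 h) induced mCherry-tagged SRCAP, wild-type or mutated in the ATPase domain. Both lines had auxinole or 4 h of IAA on top of doxycycline. All cells had been in serum and leukaemia inhibitory factor for the days before collection.

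Intraflagellar transport (IFT) carries cargo along the microtubules of the cilium. Trains of IFT-B and IFT-A proteins are moved from base to tip by heterotrimeric kinesin and back by cytoplasmic dynein-2. IFT-B is needed to build the cilium, whereas IFT-A serves the return journey and the entry of membrane proteins. Many of these genes are known targets of RFX transcription factors, which bind a motif named the X-box, and in multiciliated cells FOXJ1 acts beside them. Embryonic stem cells carry a single primary cilium, if any.

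Reads over exons (the exon column) and over gene bodies outside exons (the intron column) were deposited separately for each library. Exon totals ran from 17.5 to 22.9 M counts (M for 1000000) in SYAT, 45.6 to 60.2 in CGR8, 19.7 to 26.7 in the sorted cells and 12.2 to 26.4 in the wtSRCAP and cdSRCAP lines. Intron totals were 18.7 to 26.9, 3.90 to 7.29, 4.52 to 32.9 and 2.01 to 5.40 M in the same order. The pluripotency markers were detected in every library, 7 of 7, with a summed level of 1206 to 3524 CPM (counts per 1000000 after scaling). Since only SRCAP protein is targeted, its mRNA does not check the degradation: Srcap stood at 21.3 to 24.2 CPM in CGR8 and at 39.9 to 74.5 CPM in the other lines. The second SYAT library at 6 h stood apart, with 55.0 CPM summed over 6 multiciliated cell markers against 26.6 to 36.4 CPM in the other SYAT libraries, and the counts, the medians and the fold changes of genes at 6 h are also given without it, where it moves them. In these bulk libraries, fewer cells that express a gene and less RNA per cell cannot be told apart.

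Per kilobase of exon, Ift20, an IFT-B subunit that also works at the Golgi, was the most abundant member in SYAT controls at 12.2 ± 0.905 CPM per kb (SD, n = 2). Wdr34, an intermediate chain of dynein-2, followed at 11.1 ± 1.42 CPM per kb, and Kifap3, the adaptor that joins the kinesin motors to cargo, at 10.0 ± 0.537 CPM per kb. These neighbours did not differ beyond their spread. The lowest were Hspb11 (the IFT25 protein) at 0.546 ± 0.0461 CPM per kb, the kinesin Kif17 at 0.0582 ± 0.0197 and Ttc30a2 at 0.0170 ± 0.0240. Ttc30a1, Ttc30a2 and Ttc30b are near-identical neighbours on chromosome 2 that encode IFT70, a subunit of the IFT-B core. Over their aligned transcripts Ttc30a1 was 95.5% identical to Ttc30a2 and 94.4% to Ttc30b, and 23.8% and 12.9% of its stretches of 75 bases, the read length, occurred unchanged in each copy. Reads can therefore be split among the copies, and their separate values are uncertain. Ttc30a1 was measured at 2.41 ± 0.191 CPM per kb and Ttc30b at 0.710 ± 0.172. Among the members, 12 overlap another annotated gene, 8 of them one on the other strand, and the strand setting of the counting is not given in the sources used here.

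**Figure D1:**
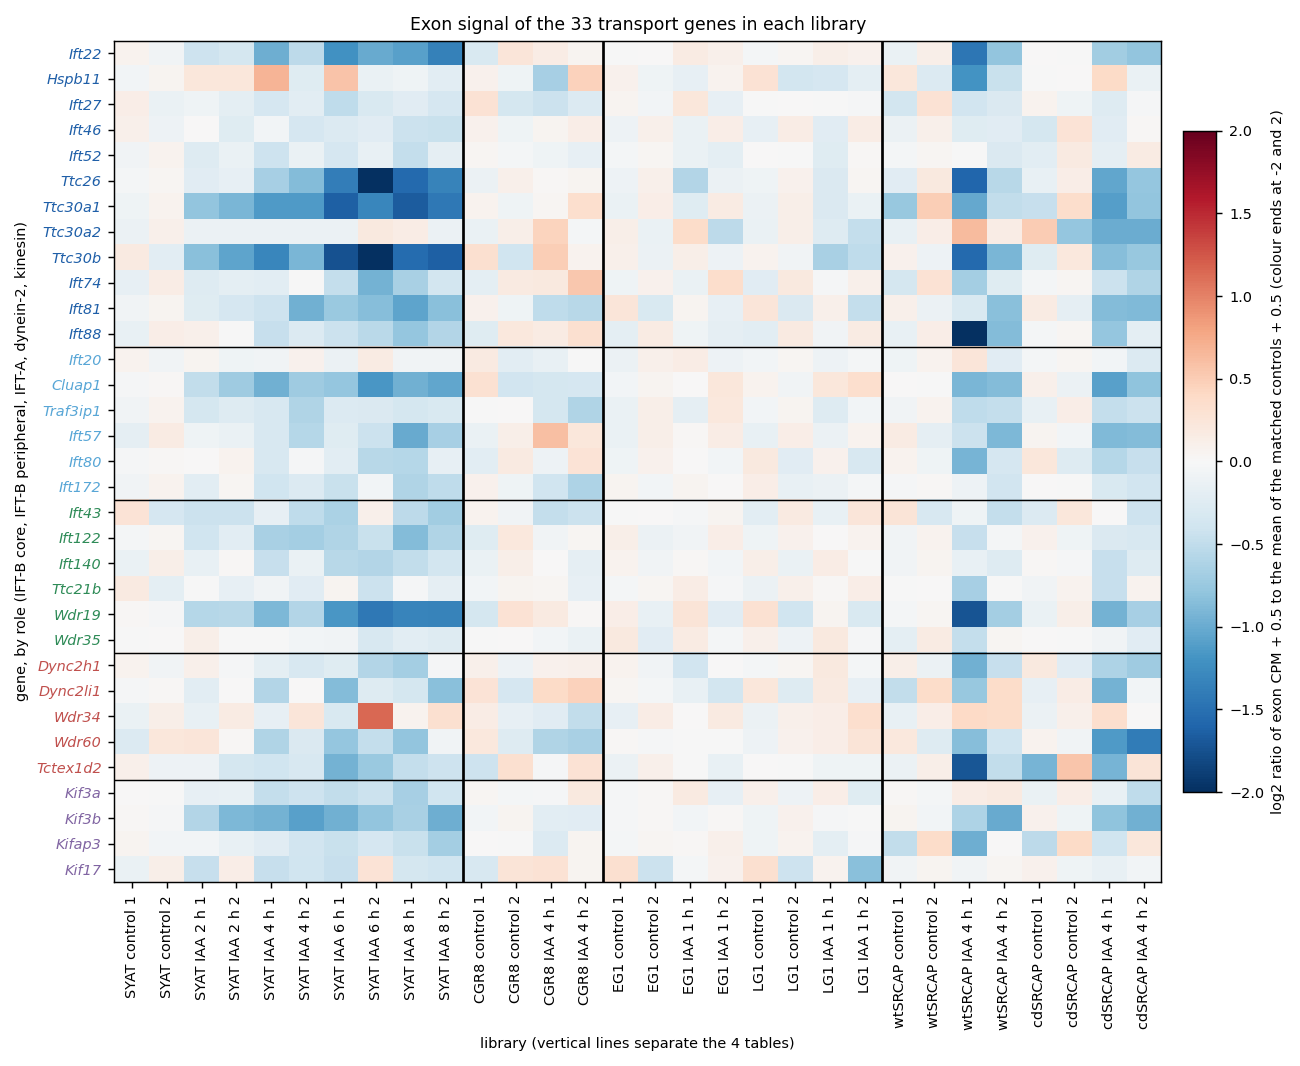
Exon levels of the 33 genes (rows, grouped by role) in the 30 libraries (columns) as log2 of CPM plus 0.5 over the mean of the matched control libraries plus 0.5, on a colour scale from -2 to 2. The SYAT columns at 4, 6 and 8 h lie below their controls for most genes, with Wdr34 in the second 6 h library as the clearest exception, and the CGR8 and sorted columns scatter around 0.

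In SYAT cells the RNA of most members was lower after IAA, with a lower summed level at 4, 6 and 8 h than at 2 h. The summed level of the 33 genes was 499 and 501 CPM in controls, 457 and 449 at 2 h, 401 and 406 at 4 h, 377 and 407 at 6 h and 358 and 378 at 8 h. All 8 treated libraries lay below both controls. The mean was below that of the controls for 26, 30, 29 and 31 of 33 members at 2, 4, 6 and 8 h. The 4 times share the same 2 control libraries, so they are not independent of each other.

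A filter on low counts kept 31 members, leaving out Ttc30a2 and Kif17. Their median log2 fold change was -0.14, -0.36, -0.48 and -0.55 at the 4 times, where the median of the 19205 genes tested was 0.00, 0.02, 0.01 and 0.03. Both treated libraries lay below both controls for 15 members at 2 h (21% of all genes tested), 23 at 4 h (24.1%), 25 at 6 h (22.2%) and 26 at 8 h (24%). At 2 h 1 member, Hspb11, lay wholly above (18.6% of all genes). None did at 4, 6 or 8 h, but the share of all genes is not given for these times. That absence therefore shows nothing particular to the members. With edgeR's quasi-likelihood test, a log2 fold change beyond 0.5 and an adjusted p under 0.05 called 0 of 31 members lower at every time. The same rule called 0%, 0%, 0.0364% and 0% of all genes lower. The smallest adjusted p of a member was 0.0533 at 6 h and 0.0611 at 8 h. At an unadjusted p under 0.05, 5, 11, 15 and 17 members were lower, beside 2.55%, 6%, 8.21% and 8.44% of all genes lower. DESeq2 called 0, 2, 6 and 6 members lower, against 0.0452%, 0.958%, 2.86% and 2.21% of all genes. The cut-offs were the same numbers, but its log2 fold changes were shrunken, that is drawn towards 0, before the cut. At 4 h these were Kif3b and Ttc30a1, and at 6 and 8 h Cluap1, Ift22, Kif3b, Ttc26, Ttc30a1 and Wdr19. Without the second 6 h library edgeR called 0 members at 6 h (0% of all genes lower), the median was -0.50, 16 members were lower at an unadjusted p under 0.05 (7.96%), and DESeq2 called Kif3b, Ttc26 and Ttc30a1 lower (0.681%). Without the first, edgeR called 8 lower (7.52% of all genes) and Wdr34 higher (7.91%).

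**Figure D2:**
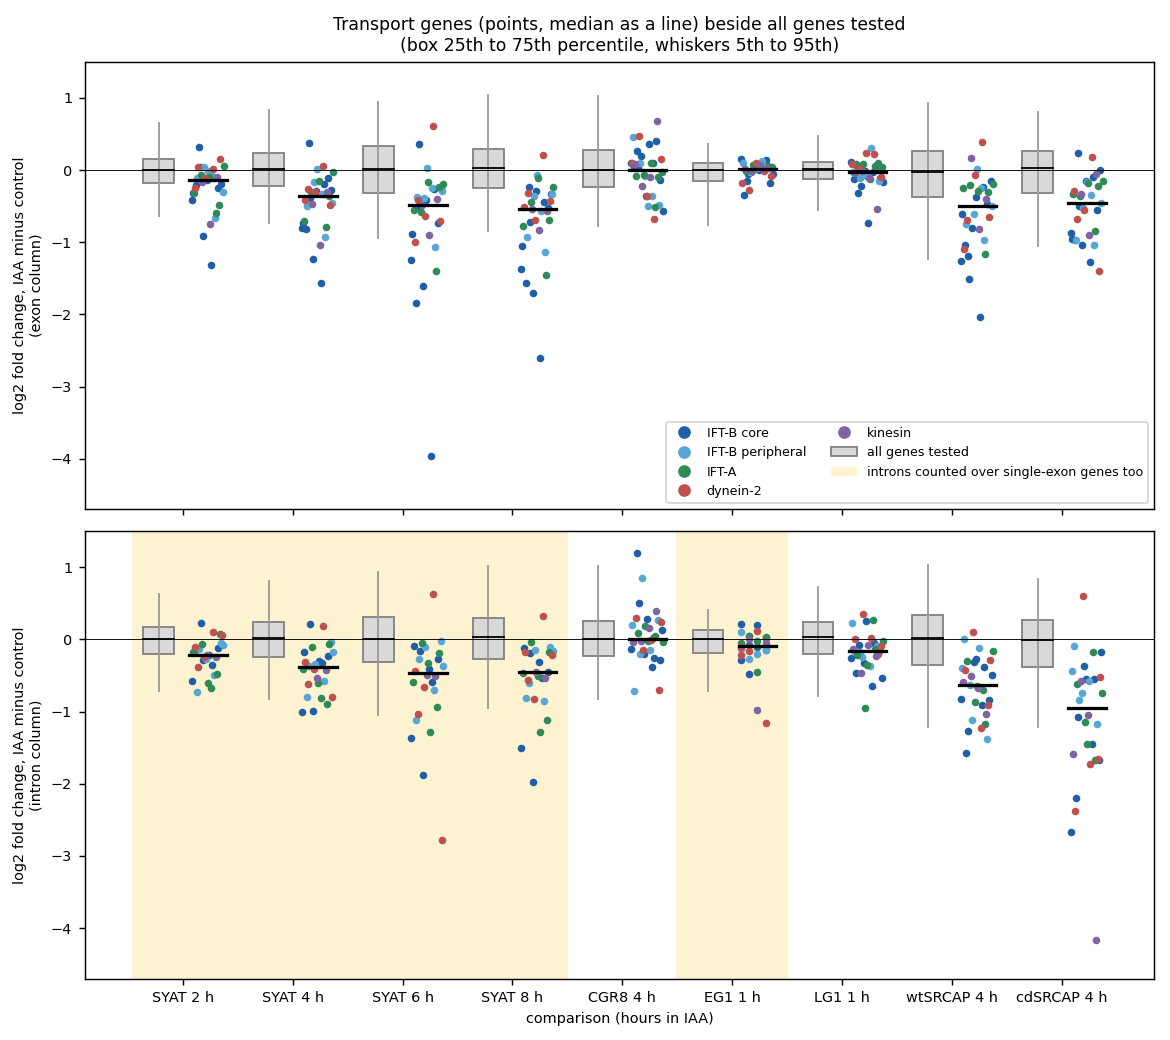
Log2 fold changes after IAA of the members tested (points, with a line at their median) beside all genes tested (box, the middle 50%, and whiskers, the 5th to 95th percentile) in 9 comparisons, exon column above and intron column below. Yellow marks intron columns that hold counts for single-exon genes, which are not comparable with the others, and Ttc30a1 in the SYAT introns and members without counts in a sorted phase are not drawn. Member medians lie below 0 in SYAT and in the wtSRCAP and cdSRCAP lines and near 0 in CGR8 and in the exon column of sorted cells.

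Promoter sequence from RefSeq (GRCm38.p6, around the annotated start) was matched for 28 of the 33 members by symbol. It is shown for 4 genes picked from those with the lowest values after IAA, 3 of which hold an X-box pattern, in capitals. Ttc30a1 and Cluap1, also among the lowest, hold no such pattern and are not shown, so the 4 do not stand for the group. The pattern has 14 bases: GT, any pair, CC, any 3, G, any pair, AC.
Ttc26, chr6:38381274-38381573, plus strand: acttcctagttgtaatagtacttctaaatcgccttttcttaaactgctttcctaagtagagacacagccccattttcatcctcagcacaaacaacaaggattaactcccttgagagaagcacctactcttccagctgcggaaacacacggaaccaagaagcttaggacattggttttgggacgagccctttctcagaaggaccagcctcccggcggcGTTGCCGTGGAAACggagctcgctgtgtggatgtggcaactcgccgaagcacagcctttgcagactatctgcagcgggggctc
Wdr19, chr5:65199446-65199745, plus strand: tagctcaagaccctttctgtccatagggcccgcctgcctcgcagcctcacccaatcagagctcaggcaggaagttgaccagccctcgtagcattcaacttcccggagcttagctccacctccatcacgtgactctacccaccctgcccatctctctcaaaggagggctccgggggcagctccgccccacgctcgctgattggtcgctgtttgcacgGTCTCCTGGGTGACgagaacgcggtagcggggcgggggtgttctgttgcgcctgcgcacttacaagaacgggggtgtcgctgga
Ift22, chr5:136907900-136908199, plus strand: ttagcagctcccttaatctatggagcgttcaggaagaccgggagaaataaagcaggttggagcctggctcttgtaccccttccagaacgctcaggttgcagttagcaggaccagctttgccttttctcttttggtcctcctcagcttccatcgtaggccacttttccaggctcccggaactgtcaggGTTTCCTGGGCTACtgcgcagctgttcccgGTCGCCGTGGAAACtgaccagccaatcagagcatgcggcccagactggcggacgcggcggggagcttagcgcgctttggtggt
Kif3b, chr2:153291166-153291465, plus strand: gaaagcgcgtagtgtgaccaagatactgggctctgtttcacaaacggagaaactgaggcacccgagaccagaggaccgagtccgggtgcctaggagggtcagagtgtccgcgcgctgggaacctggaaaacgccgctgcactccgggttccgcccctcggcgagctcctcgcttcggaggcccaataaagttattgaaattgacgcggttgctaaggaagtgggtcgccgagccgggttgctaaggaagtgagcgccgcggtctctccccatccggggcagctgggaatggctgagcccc
Kif3b holds no match in this window. On either strand the pattern occurred in 7 of 28 members (25%), namely Dync2h1, Ift22, Ift57, Tctex1d2, Ttc26, Ttc30a2 and Wdr19, and in 4.62% of all 32851 promoters in the RefSeq table. The shorter RFX half-site GTTGCC, which can lie inside the X-box, was found in 13 members (46.4%) and in 12.5% of all promoters. The NRF1 pattern, GCGC, any base, TGCGC, was in 11 members (39.3%) and 4.6% of all. A CCAAT box occurred in 18 (64.3%) and 37.4%, and the cyclic AMP response element TGACGTCA in 2 (7.14%) and 1.79%. A match is a description of the letters, not of binding.

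In the IFT-B core, 10 of 11 tested members were lower at 6 h and 11 of 11 at 8 h, with a median log2 fold change of -0.73 and -0.73. Ttc26 (chromosome 6, 38381469 to 38427647, plus strand), the IFT56 protein, was at 9.31 and 9.79 CPM in controls, 8.12 and 8.45 at 2 h, 5.87 and 5.03 at 4 h, 3.37 and 1.97 at 6 h and 2.94 and 3.49 at 8 h. All 8 treated libraries lay below both controls, and the levels at 6 and 8 h did not overlap those at 2 and 4 h. Its log2 fold change was -0.81 (SE 0.27) at 4 h, -1.84 (SE 0.28) at 6 h (adjusted p = 0.0533) and -1.57 (SE 0.27) at 8 h. Ttc26 overlaps Gm16563 on the same strand. Ttc30a1 (chromosome 2, 75978247 to 75981967, minus strand) was at 8.45 and 9.46 CPM in controls, 4.96 and 4.53 at 2 h, 3.83 and 3.81 at 4 h, 2.55 and 3.32 at 6 h and 2.5 and 3 at 8 h. It was already apart from the controls at 2 h, at -0.92 (SE 0.24) with an unadjusted p of 0.00342, and its log2 fold change at 8 h was -1.70 (SE 0.25). Its copy Ttc30b was scarcer, at 2.28 and 1.61 CPM in controls, 0.872 and 0.683 at 2 h, 0.485 and 0.796 at 4 h, 0.232 and 0 at 6 h and 0.343 and 0.288 at 8 h. Each treated library was again below both controls, with a log2 fold change of -3.96 (SE 0.76) at 6 h. Without the second 6 h library the log2 fold changes at 6 h were -1.50 (SE 0.25) for Ttc26 and -3.03 (SE 0.66) for Ttc30b, and the median of the core was -0.52. Ttc30a2 had at most 0.123 CPM in any SYAT library.

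Ift22 (chromosome 5, 136908150 to 136915404, plus strand), a small GTPase-like subunit, was at 6.63 and 5.99 CPM in controls, 4.63 and 4.82 at 2 h, 2.96 and 4.23 at 4 h, 2.44 and 2.89 at 6 h and 2.69 and 2.18 at 8 h. Its 8 treated libraries lay below both controls, and the log2 fold change was -0.41 (SE 0.27) at 2 h and -1.37 (SE 0.28) at 8 h. Ift81 and Ift74 form the pair that binds tubulin. Ift81 was at 5.67 and 6.24 CPM in controls, 4.96 and 4.61 at 2 h, 4.37 and 2.81 at 4 h, 3.37 and 3.07 at 6 h and 2.59 and 3.12 at 8 h, again with no overlap between treated and control libraries, and -1.06 (SE 0.28) at 8 h. Ift74 overlapped its controls at 4 h and not at 6 or 8 h, with 11.3 and 14.1 CPM in controls, 8.99 and 6.39 at 6 h and a log2 fold change of -0.73 (SE 0.23). Ift88, the Polaris protein, was at 7.24 and 8.84 CPM in controls, 8.61 and 7.98 at 2 h, 5.71 and 6.54 at 4 h, 5.86 and 5.4 at 6 h and 4.5 and 5.22 at 8 h, so the 2 h libraries overlapped the controls and the later ones did not. Its log2 fold change at 8 h was -0.73 (SE 0.22). Hspb11, Ift27, Ift46 and Ift52 completed the core, with log2 fold changes of -0.23, -0.29, -0.45 and -0.33 at 8 h.

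Of the 6 peripheral IFT-B members, 5 were lower at 6 h and 6 at 8 h, with medians of -0.33 and -0.47. Cluap1 (chromosome 16, 3908801 to 3941147, plus strand), the IFT38 protein, was at 5.57 and 5.82 CPM in controls, 3.93 and 3.29 at 2 h, 2.69 and 3.27 at 4 h, 3.13 and 2.27 at 6 h and 2.69 and 2.51 at 8 h. From 2 h on, its treated libraries did not overlap the controls, and its log2 fold change was -0.66 (SE 0.27) at 2 h (unadjusted p = 0.0339) and -1.13 (SE 0.27) at 8 h. Cluap1 overlaps annotated genes on both strands. Ift57 was at 4.66 and 5.99 CPM in controls, 5.02 and 4.82 at 2 h, 4.15 and 3.44 at 4 h, 4.41 and 3.81 at 6 h and 2.4 and 3.16 at 8 h, and its log2 fold change at 8 h was -0.93 (SE 0.27). Ift172, the largest IFT-B subunit, was at 29 and 32.1 CPM in controls, 26.3 and 31.3 at 2 h, 23.1 and 25.2 at 4 h, 22.3 and 29.3 at 6 h and 20 and 21.3 at 8 h, with -0.57 (SE 0.18) at 8 h. Its 6 h libraries overlapped the controls and its 8 h libraries did not. Ift20 stayed between 17.1 and 20.8 CPM throughout, with 0.03 (SE 0.17) at 6 h and -0.07 (SE 0.17) at 8 h. Leaving out the second 6 h library gave Ift20 -0.12 (SE 0.16) at 6 h. Traf3ip1 and Ift80 had -0.33 and -0.36 at 8 h.

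All 6 IFT-A members were lower at 4, 6 and 8 h, with medians of -0.33, -0.39 and -0.56. Wdr19 (chromosome 5, 65199696 to 65260415, plus strand), the IFT144 protein, was at 9.87 and 9.58 CPM in controls, 6.38 and 6.49 at 2 h, 4.96 and 6.29 at 4 h, 4.06 and 3.32 at 6 h and 3.57 and 3.53 at 8 h. The 2 h values lay between the controls and the 6 and 8 h values, with no overlap. Its log2 fold change was -0.60 (SE 0.22) at 2 h, -1.40 (SE 0.23) at 6 h and -1.45 (SE 0.23) at 8 h (adjusted p = 0.0684). Ift122, a scaffold of the same core complex, was at 8.71 and 9.21 CPM in controls, 6.71 and 7.64 at 2 h, 5.55 and 5.41 at 4 h, 5.74 and 6.45 at 6 h and 4.7 and 5.71 at 8 h and at -0.78 (SE 0.22) at 8 h. Wdr35 differed less, with 68.7 and 68.7 CPM in controls and 59.1 and 57.4 at 8 h, a log2 fold change of -0.24 (SE 0.13). When the second 6 h library was left out, the IFT-A median at 6 h was -0.60 and Wdr19 was at -1.25 (SE 0.25). Ift43, Ift140 and Ttc21b had -0.69, -0.44 and -0.10 at 8 h.

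The motors were uneven. Among the 5 dynein-2 members, 4 were lower at 6 and 8 h, with medians of -0.64 and -0.42. Tctex1d2, a light chain, was at 4.25 and 3.63 CPM in controls, 3.65 and 2.99 at 2 h, 2.86 and 3.06 at 4 h, 1.8 and 2.15 at 6 h and 2.69 and 2.84 at 8 h, and its lowest log2 fold change was -1.0 (SE 0.28) at 6 h. Wdr34 was the dynein-2 member that was higher, at 23.9 and 28.6 CPM in controls, 23.7 and 29.5 at 2 h, 23.4 and 31.3 at 4 h, 21.1 and 58.9 at 6 h and 27.5 and 32.9 at 8 h, and the 6 h libraries lay on either side of the controls. Its log2 fold change at 6 h was 0.61 (SE 0.38), and the value of 58.9 CPM belongs to the library with the highest multiciliated markers, whose part in this value was not tested. Without that library Wdr34 was at -0.31 (SE 0.23), on the other side of 0, Tctex1d2 at -1.12 (SE 0.33), and the dynein-2 median was -0.88. Dync2h1, Dync2li1 and Wdr60 had -0.32, -0.69 and -0.42 at 8 h.

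The 3 kinesin members tested were lower at every time, with medians of -0.16, -0.47, -0.48 and -0.57. Kif3b (chromosome 2, 153291413 to 153333390, plus strand), a motor subunit, was at 28.7 and 27.5 CPM in controls, 18.6 and 14.8 at 2 h, 14.3 and 13 at 4 h, 14.2 and 16 at 6 h and 17.7 and 14 at 8 h. Its 4, 6 and 8 h values overlapped each other, and all 8 treated libraries lay below both controls. Its log2 fold change was -0.75 (SE 0.19) at 2 h (unadjusted p = 0.00254), -1.04 (SE 0.19) at 4 h and -0.83 (SE 0.19) at 8 h. Kif3a, its partner, was at -0.55 (SE 0.18) at 8 h. Kifap3 was at 41.7 and 38.7 CPM in controls, 38.7 and 36.4 at 2 h, 34.3 and 30.6 at 4 h, 29.4 and 31.7 at 6 h and 29.4 and 24.9 at 8 h, with -0.57 (SE 0.15) at 8 h. Kif17 was at or below 0.43 CPM in every SYAT library and was not tested there. In the sorted cells, where it was tested, it stood at 0.229 to 1.12 CPM.

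**Figure D3:**
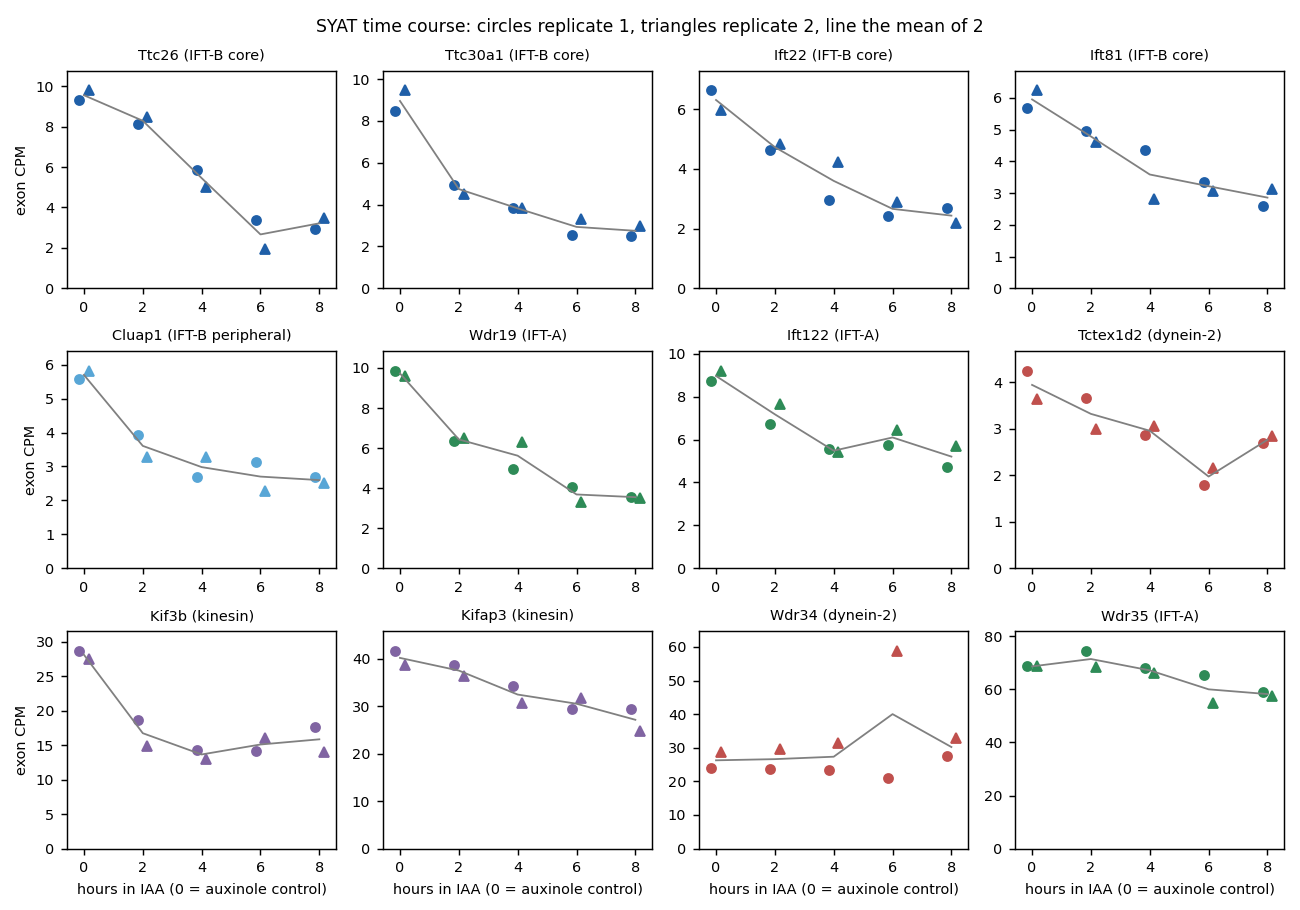
Exon level in CPM against hours of IAA in SYAT cells for 12 members, with 0 h for the auxinole controls, circles for replicate 1, triangles for replicate 2 and a line through the means. Kif3b is already low at 2 and 4 h, Ttc26 and Wdr19 are lower again at 6 h, Wdr35 differs less, and Wdr34 splits at 6 h into 21.1 and 58.9 CPM.

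The intron column was read beside these. In the SYAT intron column 28 members had counts, and their mean was lower than in controls for 24, 26, 27 and 27 of 28 at 2, 4, 6 and 8 h. Ttc30a2, Ift81, Ift88, Kif3b and Kif17 were at 0 in all 10 libraries, although Kif3b, Ift81 and Ift88 have introns. This column holds reads that those of CGR8, wtSRCAP and cdSRCAP do not: of 1175 genes with a single exon and 20 or more counts over it, 49.4% to 50.6% had intron counts in SYAT libraries, against 0% of such genes in CGR8 and in the wtSRCAP and cdSRCAP lines. SYAT intron values are therefore not compared with those of the other tables.

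Of the 27 members that passed the filter in the SYAT intron column, Ttc30a1 passed through its controls alone and is left out of the counts. The median log2 fold change of the other 26 was -0.22, -0.39, -0.47 and -0.46. Both treated libraries lay below both controls for 15, 19, 21 and 18 members, beside 23.5%, 24.6%, 23.6% and 23.5% of all genes. edgeR called 0 members lower at each time (0%, 0%, 0.00679% and 0.00679% of all genes). An unadjusted p under 0.05 was reached by 3, 10, 11 and 13 members, all lower, beside 3.29%, 5.87%, 7.98% and 7.85% of all genes. DESeq2 called 0, 0, 5 and 4 lower (0.209%, 1.17%, 2.3% and 2.17% of all genes). The calls at 6 h were Cluap1, Ift22, Tctex1d2, Ttc26 and Wdr19, and those at 8 h were Ift122, Ift22, Ttc26 and Wdr19. Without the second 6 h library edgeR called 0 members at 6 h (0%), 13 were lower at an unadjusted p under 0.05 (7.96%) and DESeq2 called Wdr19 (1.05%). Without the first, edgeR called Cluap1, Ttc26 and Wdr19 lower (4.46%) and Wdr34 higher (5.1%) at 6 h. Of the 26 members tested in both columns, 20, 23, 23 and 25 were lower in both. The columns may not be independent, as counts over single-exon genes cannot come from introns. In the first control library Ift46 had 628 exon and 732 intron counts, and Ift20 had 387 and 425. The agreement is therefore not read as separate support.

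Wdr19 introns were at 11.8 and 10.8 CPM in controls, 7.24 and 6.89 at 2 h, 5.89 and 6.96 at 4 h, 5.23 and 4.07 at 6 h and 4.69 and 4.63 at 8 h, with every treated library below both controls and a log2 fold change of -0.68 (SE 0.22) at 2 h and -1.28 (SE 0.22) at 6 h. Ttc26 introns were at 8.16 and 10.2 CPM in controls, 6.76 and 8.33 at 2 h, 4.51 and 4.68 at 4 h, 2.86 and 2.1 at 6 h and 1.5 and 3.12 at 8 h, and -1.98 (SE 0.37) at 8 h. Cluap1 introns had a log2 fold change of -0.73 (SE 0.28) at 2 h, from 7.61 and 7.08 to 4.61 and 4.25 CPM. These are genes whose exon signal was also lower at 2 h. Ift43 had 22.9 and 17.2 CPM in controls and 14.4 and 12 at 2 h, a log2 fold change of -0.61 (SE 0.21). Ift22, Tctex1d2 and Kifap3 introns stood at -1.51 (SE 0.28) at 8 h, -1.04 (SE 0.24) at 6 h and -0.53 (SE 0.13) at 8 h. With the second 6 h library left out, introns at 6 h were at -1.11 (SE 0.22) for Wdr19 and -1.18 (SE 0.27) for Tctex1d2. Reads assigned to the intron column of Ttc30a1 numbered 62 and 92 in the controls and 0 in all 8 treated libraries. Against a floor of 3 counts per library that column was at least 21.5-fold, 21.3-fold, 18.8-fold and 23.3-fold lower at 2, 4, 6 and 8 h. Ttc30a1 and Ttc30b each have 1 annotated exon and no intron, so these reads are not intronic. The exon column of Ttc30a1 still held 91 and 106 counts at 2 h, so the fold values do not measure its RNA. Ttc30a1 also passed the filter through the controls alone, so the difference in the intron column had to be there once it was tested. Ttc30b went from 23 and 4 counts to 0 and was not tested.

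IAA was also given to CGR8 cells, to show what it does where SRCAP carries no degron. The summed exon level of the 33 genes was 550 and 534 CPM without IAA and 499 and 498 CPM after 4 h. The mean was lower for 16 of 33 members, and of the 32 tested 16 were lower and 16 higher, with a median log2 fold change of 0.00. edgeR called 0 members lower (0.00988% of all genes) and DESeq2 0 (0.355%). At an unadjusted p under 0.05, 4, namely Ift172, Ift81, Traf3ip1 and Wdr60, were lower (4.12% of all genes) and 0 higher. Both treated libraries lay below both controls for 9 members (20.6% of all genes) and above for 3, Dync2li1, Ift57 and Ift74 (21.6%). Ift172 was at 49.8 and 43.9 CPM in controls and 35.5 and 30.5 after IAA, a log2 fold change of -0.51 (SE 0.15). Ift81 was at 9.4 and 8.34 CPM in controls and 6.09 and 5.86 after IAA, or -0.57 (SE 0.20), and Wdr60 at 8.63 and 6.11 CPM in controls and 4.71 and 4.5 after IAA, or -0.68 (SE 0.25). Each of these had no overlap between the groups. Without the second control library, Ift172 and Wdr60 were called lower (4.11%). Ttc26 was at 8.09 and 9.55 CPM in controls and 8.95 and 9.19 after IAA, and Kif3b at 30.9 and 33.5 CPM in controls and 27.7 and 27.5 after IAA, with log2 fold changes of 0.04 (SE 0.20) and -0.22 (SE 0.15). The difference between the SYAT and CGR8 responses was not tested, as the lines are in separate tables.

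In the CGR8 intron column 30 members were tested, 15 lower and 15 higher, and edgeR called 0 (0.00733% of all genes lower and 0.0147% higher), as did DESeq2. At an unadjusted p under 0.05, 1 was lower (2.68% of all genes) and 1 higher (2.57%). Ttc26 introns were higher, at 5.93 and 14.6 CPM in controls and 19.2 and 28.8 after IAA, a log2 fold change of 1.20 (SE 0.47). Ift20 introns were lower, at 32.7 and 24.7 CPM in controls and 15.4 and 19.4 after IAA, or -0.72 (SE 0.31). Without the second control library 3 members, Cluap1, Ift57 and Ttc26, were called higher (4.53%). Of the 30 members tested in both columns, 9 were lower in both, 8 higher in both and 13 differed in direction.

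The sorted cells had the shortest treatment, 1 h of IAA before sorting, which by the study's account fell in mitosis for EG1 cells and in G1 for LG1 cells. Summed exon levels lay between 543 and 568 CPM in all 8 libraries. The mean was lower after 1 h of IAA for 14 of 33 members in EG1 and for 20 of 33 in LG1, and the medians of the 32 tested were 0.01 and -0.03. Here a call needed a log2 fold change beyond 0.25 and an unadjusted p under 0.05. edgeR called 0 members in EG1 (1.03% of all genes lower) and 1 in LG1 (0.733% lower). No member in EG1 reached an unadjusted p under 0.05, and DESeq2 called 0 in both. With the replicate number as a block, here taken to pair the libraries, Ttc26 was called lower in EG1 at -0.36 (SE 0.13), beside 4.53% of all genes. Ttc30b fell in LG1, from 2.49 and 2.2 to 1.31 and 1.51 CPM, with a log2 fold change of -0.73 (SE 0.28) and an unadjusted edgeR p of 0.0338. These levels are low, the call was lost when any 1 of the 4 LG1 libraries was left out, and the difference between its LG1 and EG1 responses was -0.74 (SE 0.40) with an unadjusted edgeR p of 0.102. Between LG1 and EG1, edgeR called 0 members in controls (0% of all genes lower, 0% higher) and 0 in the response (0% and 0%). None reached an unadjusted p under 0.05 in either, and DESeq2 called 0 in both.

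In the intron column of the sorted cells, the EG1 libraries, like those of SYAT, had counts over 43.6% to 44.5% of 1825 single-exon genes and the LG1 libraries over at most 0.0548%, so each phase was compared only with its own controls. The filter, scaling and dispersion were still shared by all sorted libraries. The mean was lower for 19 of the 30 members with counts in EG1 and for 25 of 30 in LG1, and the medians over the 28 and 30 tested members with counts in that phase were -0.09 and -0.16. edgeR called 0 in EG1 (2.11% of all genes with counts in that phase lower), with 0 at an unadjusted p under 0.05, where DESeq2 called Kif3b (2.17%) and the replicate block Ift43 and Kif3b (3.98%). In LG1 Wdr19 and Ift52, both called, fell (3.01% of all genes with counts in that phase). Wdr19 went from 5.19 and 4.94 to 2.96 and 2.23 CPM, a log2 fold change of -0.95 (SE 0.29) with an unadjusted edgeR p of 0.0136. Ift52, an IFT-B core subunit, went from 23.2 and 17.3 to 14 and 14.1 CPM, or -0.53 (SE 0.21), with an unadjusted edgeR p of 0.041. Neither gene's groups overlapped. When the LG1 libraries were fitted alone, a fit chosen after seeing the data, neither gene was called. Without the second treated LG1 library neither was called, and without the first, or without the first control, Wdr19 alone was.

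The wtSRCAP and cdSRCAP lines ask whether an induced SRCAP, active or with a mutated ATPase domain, alters the response to loss of the endogenous protein. Summed exon levels were 470 and 535 CPM in wtSRCAP controls and 355 and 414 after IAA, and 469 and 510 CPM in cdSRCAP controls and 368 and 389 after IAA. In both lines the treated libraries lay below both controls. The mean was lower for 29 of 33 members in wtSRCAP and 31 of 33 in cdSRCAP, and the medians of the 31 tested were -0.50 and -0.46. Both treated libraries lay below both controls for 18 members in wtSRCAP (19.5% of all genes) and 21 in cdSRCAP (19%). On the other side, Wdr34 in wtSRCAP was at 20.9 and 25.4 CPM in controls and 30.6 and 29.9 after IAA. Kif3a was at 7.71 and 7.36 and then 8.39 and 8.57 CPM, and neither gene's groups overlapped. In cdSRCAP the Wdr34 groups overlapped, at 18.5 and 21.7 and then 25.5 and 20.3 CPM. The share of all genes wholly above is not given here. edgeR called 0 lower in either line (0.00523% and 0% of all genes), and so did DESeq2. At an unadjusted p under 0.05, 9 and 7 members were lower, beside 4.48% and 3.99% of all genes. Here too the replicate numbers were taken to pair the exon libraries, which no label states. Replicate 1 also had the lower exon total in each group. With the numbers as a block, Ift88, Kif3b and Wdr19 were called lower in wtSRCAP (1.47% of all genes) and Kif3b and Wdr60 in cdSRCAP (1.28%).

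Kif3b was at 39.9 and 37 CPM in wtSRCAP controls and 24.9 and 18.9 after IAA, and at 38.3 and 34.1 CPM in cdSRCAP controls and 20.5 and 18.4 after IAA. Neither line's groups overlapped, and the log2 fold changes were -0.82 (SE 0.23) and -0.90 (SE 0.23). Cluap1 was at 7.64 and 7.54 CPM in wtSRCAP controls and 3.8 and 3.95 after IAA. In cdSRCAP it was at 7.46 and 6.35 CPM in controls and 2.98 and 3.72 after IAA. Its log2 fold changes were -0.97 (SE 0.31) and -1.04 (SE 0.31). Wdr19 had log2 fold changes of -1.16 (SE 0.39) and -0.85 (SE 0.38), Ift22 -1.26 (SE 0.42) and -0.88 (SE 0.41), and Ift88 -1.51 (SE 0.50) and -0.49 (SE 0.49). The first wtSRCAP library after IAA was the lower one for each of these 3 genes, with Ift88 at 1.56 and 5.56 CPM, and it was also the library with the lowest exon total. In cdSRCAP, Wdr60, an intermediate chain of dynein-2, was at 7.68 and 6.89 CPM and then 3.03 and 2.47, or -1.40 (SE 0.36), Ift81 at -0.96 (SE 0.34) and Ift57 at -0.97 (SE 0.35). Between the lines no member was called by edgeR in controls, after IAA or in the response, and none reached an unadjusted p under 0.05. No share of all genes is set beside these counts, so they show nothing particular to the members. The lines' responses differed by -0.08 (SE 0.32) for Kif3b and by -0.07 (SE 0.44) for Cluap1 (log2, cdSRCAP minus wtSRCAP), which does not show that the lines act alike.

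**Figure D4:**
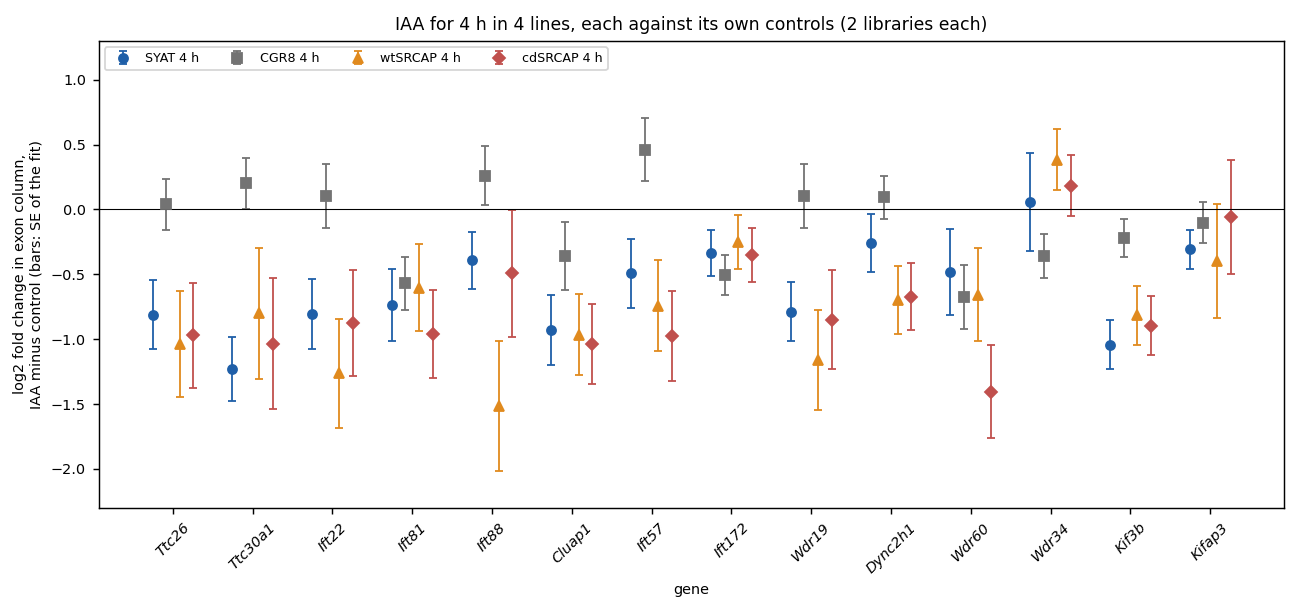
Log2 fold change of exon counts after 4 h of IAA with its SE for 14 members in SYAT, CGR8, wtSRCAP and cdSRCAP cells, each against its own 2 controls. Kif3b lies at -1.04, -0.82 and -0.90 in the 3 lines with the degron and at -0.22 in CGR8, and Cluap1 at -0.93, -0.97 and -1.04 against -0.36. The lines stand in separate tables except wtSRCAP and cdSRCAP.

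In the intron column of these lines the 3 Ttc30 genes were at 0 in every library and 30 members were tested. The mean was lower for 29 of 30 in each line, with medians of -0.64 in wtSRCAP and -0.95 in cdSRCAP. Both treated libraries lay below both controls for 20 members in wtSRCAP (21.1% of all genes) and 27 in cdSRCAP (24.6%). edgeR called 0 members lower in wtSRCAP (0.236% of all genes), with 11 at an unadjusted p under 0.05 (6.61%), and DESeq2 called 0 (1.32%). In cdSRCAP 3 fell (0.213% of all genes), 19 had an unadjusted p under 0.05 (7.49%), and DESeq2 called 4 (1.55%). Ift88 introns went from 61.8 and 55.9 to 20.3 and 16.6 CPM, a log2 fold change of -1.67 (SE 0.23) with an edgeR adjusted p of 0.0349. Ift88 overlaps Ift88os on the other strand. Ift43, an IFT-A subunit, went from 109.6 and 109 to 31.9 and 48.3 CPM, or -1.44 (SE 0.23), and Kifap3 from 160.4 and 174 to 81.1 and 80.1 CPM, or -1.05 (SE 0.17). Their edgeR adjusted p was 0.0463 and 0.0463, and none of the 3 calls held when any 1 of the 4 cdSRCAP libraries was left out. In the exon column of the same libraries Ift43 and Kifap3 were at -0.22 (SE 0.39) and -0.06 (SE 0.44).

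In wtSRCAP the intron log2 fold changes of these 3 genes were -0.84 (SE 0.23), -0.65 (SE 0.23) and -0.68 (SE 0.17). Ttc26 and Wdr60 introns were lower in both lines, Ttc26 at -1.57 (SE 0.50) in wtSRCAP and -2.20 (SE 0.49) in cdSRCAP, Wdr60 at -1.23 (SE 0.38) and -1.73 (SE 0.37). Ift57 introns were at -1.37 (SE 0.35) in wtSRCAP. Tested against each other, the 2 responses gave 0 called members by edgeR and by DESeq2. The share of all genes is not given here, so these counts show nothing particular to the members. In this comparison 24 of 30 members had the more negative value in cdSRCAP, and the median difference of all genes was -0.02. The share of all genes with a more negative value is not given here. Ift88 and Ift43 had an unadjusted edgeR p under 0.05 in this comparison, with differences of -0.83 (SE 0.32) and -0.80 (SE 0.32) (1.67% of all genes). The exon column did not show the same: of 29 members tested in both columns, the difference was negative in both for 10. It was positive in both for 3 and of opposite sign for 16. After IAA, Ift43 introns were at 68.5 and 68.4 CPM in wtSRCAP and 31.9 and 48.3 in cdSRCAP, a difference of -0.77 (SE 0.23), and Dync2li1, a dynein-2 light intermediate chain, was at 4.25 and 3.81 CPM in wtSRCAP and 0.98 and 0.952 in cdSRCAP, a difference of -2.02 (SE 0.71). In controls, Kif3a introns were at 13.2 and 9.95 CPM in wtSRCAP and 36.3 and 18.2 in cdSRCAP, a difference of 1.23 (SE 0.44) with an unadjusted edgeR p of 0.0198. The intron totals of 2.01 to 5.40 M leave these low values imprecise.

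**Figure D5:**
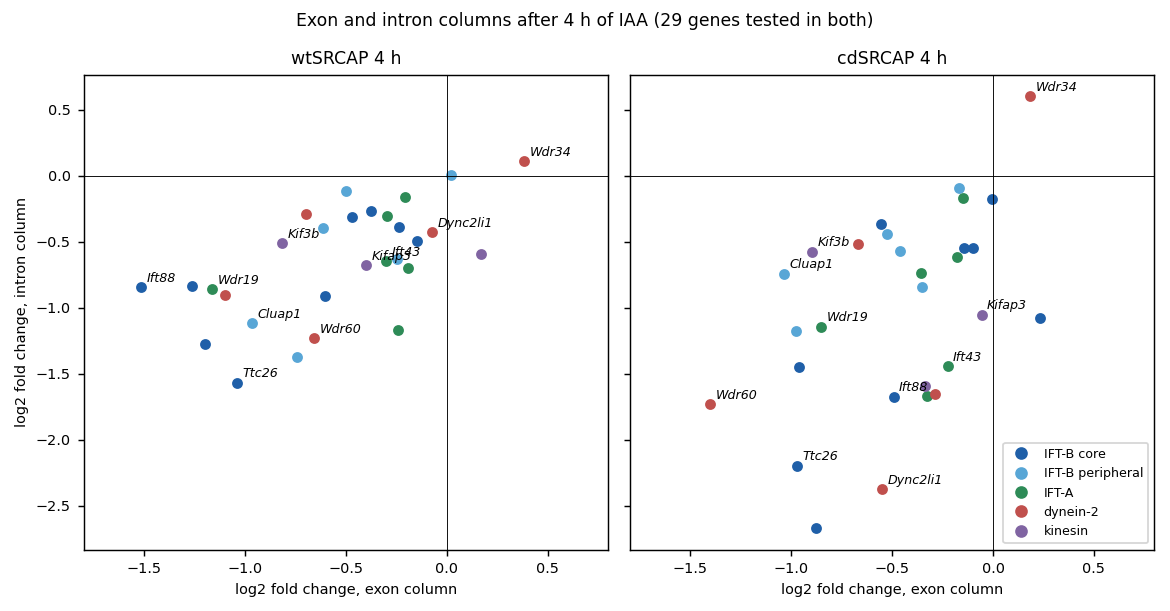
Exon against intron log2 fold change after 4 h of IAA for the 29 members tested in both columns, in wtSRCAP and cdSRCAP. Both values are below 0 for 26 members in wtSRCAP and 27 in cdSRCAP, and in cdSRCAP Ift88, Ift43 and Kifap3 lie further below 0 in the intron column than in the exon column.

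Other genes of ciliary transport were read from the same fits as a list of 32, holding dynein-2 light chains shared with other motors, kinases, CPLANE proteins that help to load IFT-A, GTPases and adaptors, further kinesins, and RFX and FOXJ1 factors. In SYAT exon counts 15, 18, 20 and 17 of 31 tested were lower at 2, 4, 6 and 8 h, with a median log2 fold change of 0.00, -0.14, -0.11 and -0.10. edgeR called 0 at each time. At an unadjusted p under 0.05, 1, 6, 7 and 7 were lower, beside 2.55%, 6%, 8.21% and 8.44% of all genes, and 1, 1, 0 and 1 higher, where the 1 was Rfx4 (1.37%, 3.09% and 5.13% of all genes at 2, 4 and 8 h). DESeq2 called 0, 1, 4 and 3 lower, beside 0.0452%, 0.958%, 2.86% and 2.21% of all genes: Kif7 at 4 h, Arl13b, Intu, Rab8a and Ttbk2 at 6 h, and Arl13b, Intu and Kif7 at 8 h. Without the second 6 h library 17 were lower at 6 h with a median of -0.04, edgeR called 0, 7 were lower at an unadjusted p under 0.05 (7.96% of all genes), and DESeq2 called Kif7 (0.681%). Intu, a CPLANE subunit, was at 15.5 and 14.3 CPM in controls and 7.49 and 7.49 at 6 h, a log2 fold change of -0.99 (SE 0.18). Arl13b, the GTPase that marks the ciliary membrane, was at 17.2 and 16.6 CPM in controls and 9.63 and 7.86 at 6 h, or -0.95 (SE 0.21). Rab8a, Ttbk2 and Dynlt3 had log2 fold changes at 6 h of -0.78 (SE 0.19), -0.86 (SE 0.22) and -1.10 (SE 0.36). Leaving out that library put Rab8a at -0.56 (SE 0.17) and Dynlt3 at -0.68 (SE 0.34). The transcription factor Rfx4 had 1.42 and 1.69 CPM in controls and 2.64 and 3.41 at 8 h, with log2 fold changes of 0.75 (SE 0.31), 0.82 (SE 0.31), 0.50 (SE 0.31) and 0.96 (SE 0.31) at the 4 times. At 6 h Rfx1, Rfx2, Rfx3 and Foxj1 were at 0.22, 0.52, -0.02 and 0.47, none of them past an unadjusted p of 0.05, and without the second 6 h library Rfx3 was at 0.31 (SE 0.18).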

How the data were processed

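Nuclear RNA of mouse embryonic stem cells was sequenced as 30 libraries, biological duplicates in the study's methods (stranded kit, paired reads of 75 bases). Per the labels and methods, the authors used STAR for alignment to mm10 and featureCounts for counting, over GENCODE vM25 exons and over gene bodies without exons. The strand setting is not given in the sources used here. The deposited values are raw counts per gene, and no column was left unmapped. Symbols and GRCm38 coordinates came from GENCODE vM21, which matched 55141 of 55401 identifiers without their version.

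Each table was fitted whole with edgeR 4.0.16 in R 4.3.3 (filterByExpr with a minimum count of 10 and a total of 15, TMM scaling, quasi-likelihood F test, Benjamini-Hochberg adjustment over all genes tested). A call needed a log2 fold change beyond 0.5 and an adjusted p under 0.05, or, for 1 h of IAA in sorted cells, 0.25 and an unadjusted p under 0.05. CPM are counts per 1000000 of the TMM-scaled library. DESeq2 1.42.0, size factors of another kind, no filter, a replicate block and leaving out each library were alternatives. DESeq2 log2 fold changes were shrunken (normal prior), except for differences between responses. They are therefore not like for like with those of edgeR. Genes with no counts in either group compared were left out of the sorted intron results, and Ttc30a1, with 0 treated counts, of the SYAT intron counts. DESeq2 without the second 6 h library was added after seeing the data. The fits were tested on simulated data. With 2 libraries a group, p-values measure the spread between these libraries only.

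Replicate numbers were taken to pair libraries where every correlation of same-numbered deviations exceeded 0.1: sorted exon (0.372 to 0.587), sorted intron (0.141 to 0.638) and wtSRCAP and cdSRCAP exon columns (0.260 to 0.376).

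Members and lists were chosen with earlier results of these data known. Named with values were the members with an unadjusted p under 0.05 and a log2 fold change beyond the threshold, at most 15 in the SYAT exon column and 5 elsewhere, with the 3 most and 3 least abundant members, the Ttc30 copies and at most 5 other ciliary genes. Other genes named with a value were chosen after their values were seen.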

Additional observations from a re-analysis of the deposited data

Results flagged for a closer look

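Introns of 2 members moved one way in both EG1 libraries and the other way in both LG1 libraries after 1 h of IAA. Ift22 introns were at 3.19 and 3.6 CPM in EG1 controls and 3.84 and 4.05 after IAA, and at 2.28 and 2.97 CPM in LG1 controls and 2.13 and 2.23 after IAA. The log2 fold changes were 0.22 and -0.26, 0.48 apart (EG1 minus LG1). The LG1 values rest on 18 and 18 counts in controls and 18 and 12 after IAA. Ift80 introns were at 31.5 and 30.1 CPM in EG1 controls and 27.8 and 28.5 after IAA, and at 54.7 and 59.8 CPM in LG1 controls and 66.5 and 67.7 after IAA, with log2 fold changes of -0.13 and 0.23, a difference of -0.36. Neither difference was tested, because the EG1 and LG1 intron columns hold unlike reads. The share of all genes with such opposite moves is not given here.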

How the results depend on the processing

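The log2 fold changes of members chosen by the naming rule kept their sign under the alternatives run. Of all 123 log2 fold changes given, 11 turned sign when 1 library was left out, all of them among those not chosen by that rule. Their ranges without 1 library were -0.12 to 0.17 and -0.15 to 0.00079 for Ift20 at 6 and 8 h, -0.44 to 0.31 for Rfx3 and -0.31 to 1.17 for Wdr34 at 6 h, -0.28 to 0.092 for Ttc21b at 8 h, -0.67 to 0.058 for Cluap1 and -0.061 to 0.17 for Ttc26 in CGR8, -0.50 to 0.11 for Ift43 and -0.44 to 0.50 for Kifap3 in cdSRCAP, and, for the difference between the responses of cdSRCAP and wtSRCAP, -0.23 to 0.050 for Cluap1 and -0.31 to 0.076 for Kif3b. DESeq2 without the second 6 h library, a fit chosen after seeing the data, gave -0.087, 0.21 and -0.19 for Ift20, Rfx3 and Wdr34, and called 3 members in exons and 1 in introns (0.965% and 1.7% of all genes, called in either direction, as are the shares that follow). DESeq2 called 2, 6 and 6 members in SYAT exons at 4, 6 and 8 h (1.29%, 4.6% and 2.92%), 5 and 4 in SYAT introns at 6 and 8 h (3.75% and 3.32%), 0 in LG1 exons (0.262%) and 1 in EG1 introns (2.6%). With the replicate block, edgeR called 2, 7 and 9 members in SYAT exons at 4, 6 and 8 h (0.396%, 4.29% and 3.3%), 1 in CGR8 exons (2.47%), 1 in EG1 exons (6.04%), 2 in EG1 introns (4.85%), 3 and 2 in wtSRCAP and cdSRCAP exons (3.2% and 1.81%) and 2 and 9 in their introns (2.3% and 2.52%). In DESeq2 with the replicate block these were 2, 6 and 6 in SYAT exons (2.49%, 7.76% and 5.01%), 5 and 5 in SYAT introns at 6 and 8 h (5.68% and 4.75%), 0 in LG1 exons (0.623%), 2 and 4 in EG1 and LG1 introns (5.26% and 14%), 4 and 2 in wtSRCAP and cdSRCAP exons (5.94% and 3.95%), 2 and 8 in their introns (5.95% and 4.98%) and 1 for cdSRCAP against wtSRCAP after IAA in introns (4.94%). The numbers did not meet the rule for pairing in SYAT (correlations from -0.04 in exons). Nor did they in CGR8 (0.0736 and 0.0596) and the wtSRCAP and cdSRCAP introns (from 0.0760), where they may be a number only. In SYAT exons the correlations under 0.1 were all with the 6 h group, and the others ran from 0.267 to 0.589. Whether the numbers pair the SYAT libraries is therefore unsettled. Without the filter on low counts, 1, 6 and 6 members were called in SYAT exons at 4, 6 and 8 h (0.245%, 2.47% and 1.25%), 1 in SYAT introns at 8 h (0.316%), 0 in LG1 exons (1.01%), 2 and 1 in EG1 and LG1 introns (2.69% and 3.67%) and 2 and 8 in wtSRCAP and cdSRCAP introns (2.34% and 1.72%). Size factors by relative log expression left 1 in cdSRCAP introns (0.189%), and subtracting exon from intron counts gave 2 in EG1 introns (5.42%). Fitting only the pair of conditions, chosen after seeing the data, gave 0 in LG1 exons (0.399%), 1 in EG1 introns (1.81%) and 0 in LG1 introns (2.62%). Leaving out 1 library gave 0 to 9 members at 6 h in SYAT exons (0% to 15.4% of all genes) and 0 to 4 in introns (0% to 9.56%), 0 to 2 in CGR8 exons (0.0138% to 10.9%) and 0 to 3 in introns (0% to 7.74%), 0 to 0 in LG1 exons (0.874% to 2%), 0 to 3 in EG1 introns (1.24% to 4.65%), 0 to 3 in LG1 introns (3.51% to 5.27%) and 0 to 0 in cdSRCAP introns (0% to 0%). A group left with 1 library is assumed to vary like the others. The cause of these shifts was not tested.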
